A study of Mus musculus with 8 samples.

Results

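The 10 genes described here encode parts of the T cell receptor, its coreceptors and the killing machinery of lymphocytes: Cd3e, Cd3g, Cd4, Cd8a, Klrk1, Gzmb, Prf1, Nkg7, Tcf7 and Il2rb. They were taken by gene name from a table of 55450 genes, and each name matched 1 row. RNA was sequenced from c-Kit bead-enriched cells of subcutaneous B16F10 tumours, a pigmented mouse melanoma line, in 4 tumours grown from PERK KO cells (PERK_KO, libraries 1 to 4) and 4 grown from Scramble control cells (Scramble, libraries 2 to 5). All hosts were wild-type C57BL6 mice, 6 weeks old when injected with 150000 tumour cells, and tumours were taken on day 17, so PERK, a kinase of the endoplasmic reticulum stress response, was missing from the injected cells and not from the lymphocytes of the host. Whether the PERK KO line is 1 clone and whether each tumour came from its own mouse are not given in the sources used here, so p-values measure the spread between these tumours only. Cells were enriched with magnetic beads, with no flow sort, so cells without c-Kit could be carried over.

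T cells recognise antigen through a receptor whose signal is carried by the CD3 chains, while CD4 and CD8 bind the MHC molecules that present the antigen. Cytotoxic T cells and natural killer (NK) cells destroy targets by releasing perforin, which opens the target membrane, and granzymes, proteases that enter through it. NKG2D, IL-2 receptor signalling and the transcription factor TCF1 tune how these cells are triggered, expand and persist. In tumours such cells are studied as the effectors of anti-tumour immunity.

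The comparison asked how transcripts of the c-Kit-enriched fraction differed when the tumour cells lacked PERK. Libraries held 29006949 to 47530393 counts in PERK_KO tumours and 44950033 to 56697163 counts in Scramble tumours. Levels are given in CPM, counts scaled to a library of 1000000 after TMM normalization (a scaling that sets most genes level between libraries), and a count of 0 allows up to 3 counts, which is 0.0515 to 0.100 CPM depending on the library. Such limits cover counting error only. Eif2ak3, which encodes PERK, had 13.8 ± 7.05 CPM in PERK_KO tumours and 54.3 ± 4.66 CPM in Scramble tumours (SD, n = 4 each; edgeR adjusted p = 0.00371), with no overlap between groups. Kit, the receptor used for enrichment, had 175 ± 37.7 CPM in PERK_KO tumours and 196 ± 23.7 CPM in Scramble tumours (SD, n = 4 each; edgeR adjusted p = 0.559). The edgeR test, at a Benjamini-Hochberg adjusted p under 0.05, called 7.66% of 16662 tested genes higher (1277) and 6.13% lower (1022) in PERK_KO tumours. With upper-quartile scaling the split was 1430 higher and 653 lower.

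Except for Tcf7, the lymphocyte genes were scarce, and many of their values lay near the detection limit. Of 10 genes, 2 rose in PERK_KO tumours (Klrk1 and Il2rb), none fell, 6 were tested without passing, and Cd3g and Prf1 had too few counts to be tested. At an unadjusted p under 0.05, 5 genes were higher (Cd8a, Klrk1, Gzmb, Tcf7 and Il2rb) and 0 lower, where 13.3% of all tested genes were higher and 13.3% lower. Neither DESeq2 nor limma-voom called any of them lower. All 10 were highest in PERK_KO library 4, as were 19.6% of all tested genes, and all 10 had the higher group mean in PERK_KO tumours, as did 48% of all tested genes. Every PERK_KO library lay above every Scramble library at Cd8a, Klrk1, Gzmb and Il2rb, a pattern found at 10.2% of all tested genes. Of 40 values per group, 6 were 0 in PERK_KO libraries and 12 were 0 in Scramble libraries. A scarce gene enters the test mainly through the group in which it is higher, so the number tested carries no support of its own. In these bulk libraries more lymphocytes, more RNA per lymphocyte and transcripts from other cells cannot be told apart.

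**Figure D1:**
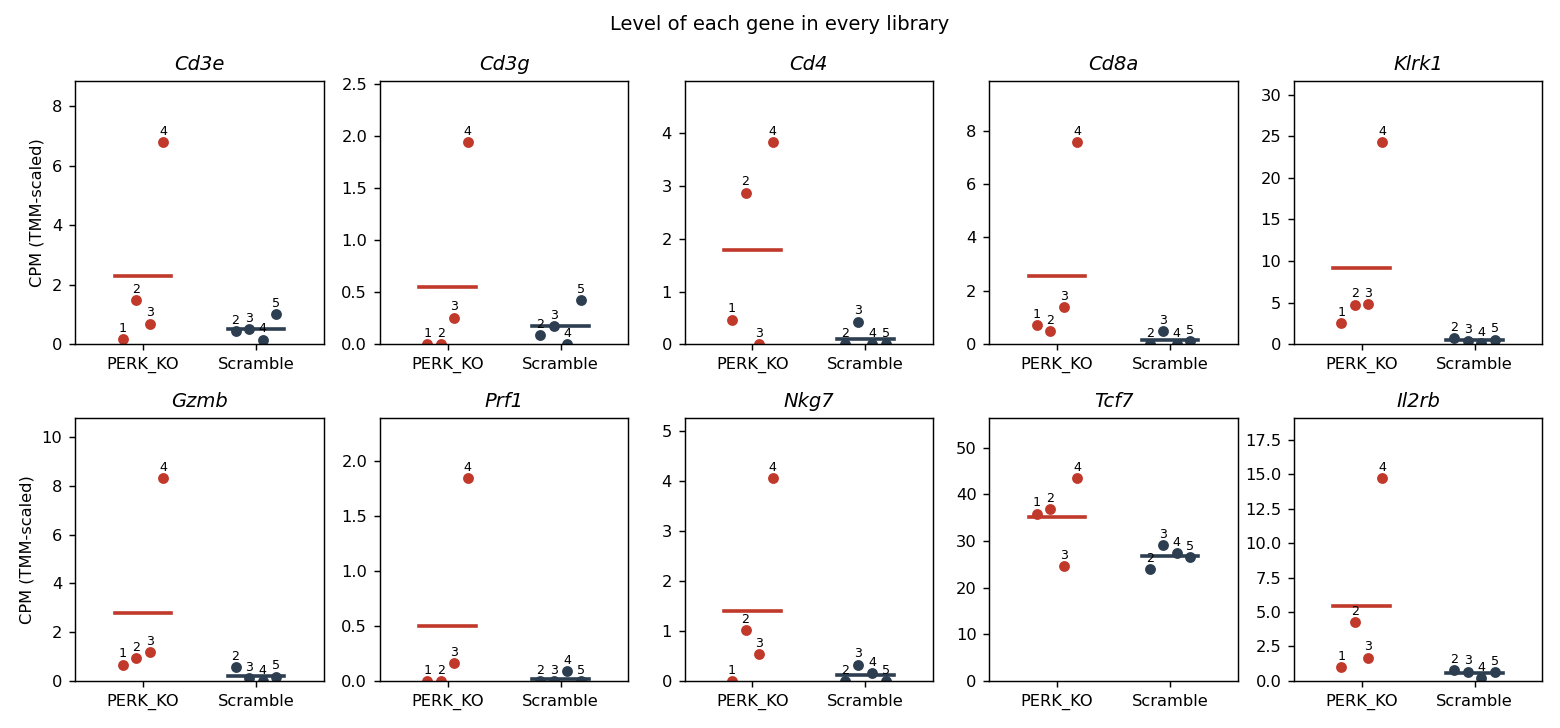
Level of each of the 10 genes in every library, in CPM on a linear axis that starts at 0. Each point is 1 library with its number, PERK_KO on the left and Scramble on the right, and bars are group means. PERK_KO library 4 is the highest point in all 10 panels, and only Tcf7 has more than 20 CPM in all 8 libraries.

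Transcripts of the CD3 chains were scarce in both groups and did not pass the test. Cd3e (ENSMUSG00000032093.7, chromosome 9, 44998740 to 45009627, minus strand, mm10) encodes CD3 epsilon, a signalling chain found in every T cell receptor complex. Cd3e had 5, 61, 30 and 262 counts in PERK_KO libraries 1 to 4, and 24, 30, 7 and 52 counts in Scramble libraries 2 to 5. In CPM this was 0.167, 1.49, 0.696 and 6.80 in PERK_KO tumours and 0.434, 0.515, 0.152 and 1.01 in Scramble tumours. The groups overlapped, and only PERK_KO libraries 2 and 4 exceeded the highest Scramble library. The log2 difference was 2.11 (SE 1.02, n = 4 each, edgeR adjusted p = 0.212), and 0.57 (SE 1.06, adjusted p = 0.814) without PERK_KO library 4, which carried 74.3% of the summed PERK_KO CPM. Gm48719, a gene on the opposite strand that overlaps its exons, had no count in any library.

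Cd3g, the gamma chain (ENSMUSG00000002033.14, chromosome 9, 44969572 to 44980431, minus strand), had fewer counts than Cd3e. PERK_KO libraries 1 to 4 held 0, 0, 11 and 75 counts of Cd3g, and Scramble libraries 2 to 5 held 5, 10, 0 and 22. Only PERK_KO library 4, with 88.4% of the PERK_KO CPM of this gene, exceeded the highest Scramble library. Cd3g failed the low-count filter. Fitted without a filter, when 4.26% of 25955 genes were called higher, its log2 difference was 1.65 (SE 1.87, n = 4 each, edgeR adjusted p = 0.63).

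Neither coreceptor gene passed the test, although Cd8a did not overlap between groups. Cd8a (ENSMUSG00000053977.13, chromosome 6, 71373427 to 71379173, plus strand), the alpha chain of CD8, which binds MHC class I on cytotoxic T cells, had 21, 20, 60 and 292 counts in PERK_KO libraries 1 to 4 and 0, 28, 0 and 6 in Scramble libraries 2 to 5. Its lowest PERK_KO level, 0.488 CPM in library 2, was close to the highest Scramble level, 0.481 CPM in library 3. The log2 difference of Cd8a was 4.05 (SE 1.42, n = 4 each, edgeR adjusted p = 0.0835). It was 2.49 (adjusted p = 0.377) without PERK_KO library 4 and 5.93 (0.0587) without Scramble library 3. DESeq2 called it higher (adjusted p = 0.00917), where 11.3% of all genes were called higher.

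Cd4 (ENSMUSG00000023274.14, chromosome 6, 124864692 to 124888221, minus strand) encodes the coreceptor for MHC class II. Its counts were 14, 118, 0 and 148 in PERK_KO libraries 1 to 4 and 0, 25, 0 and 0 in Scramble libraries 2 to 5. PERK_KO library 3 had no count of Cd4 although it had 60 of Cd8a and 30 of Cd3e. All Scramble counts lay in library 3, which exceeded PERK_KO library 3. The log2 difference of Cd4 was 4.01 (SE 1.86, n = 4 each, edgeR adjusted p = 0.193). It was 3.32 (adjusted p = 0.356) without PERK_KO library 4. The adjusted p was 0.0643 without Scramble library 3, when the remaining Scramble libraries had no count.

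Subsets of mouse dendritic cells also carry Cd8a or Cd4, so markers of these cells are given beside them. Of 12 conventional dendritic cell markers, all tested, 10 were higher and none lower in PERK_KO tumours, and their summed level ran from 193 to 1085 CPM in PERK_KO tumours against 17.8 to 48.7 CPM in Scramble tumours. Much of these sums was the MHC class II gene H2-Ab1, with 109 to 670 CPM in PERK_KO tumours and 8.98 to 23.0 CPM in Scramble tumours. Xcr1, a chemokine receptor of the CD8-bearing subset singled out after its values were seen, had 438, 506, 340 and 1871 counts in PERK_KO libraries 1 to 4 and 117, 93, 10 and 49 in Scramble libraries 2 to 5. The part of dendritic cells in the Cd8a and Cd4 counts was not tested.

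Promoter sequences are shown for Klrk1, the gene with the smallest adjusted p, for Gzmb, the scarce gene with the highest level per length in both groups, and for Tcf7, the only abundant one. They are RefSeq sequences of the build GRCm38.p6, 250 bases before to 50 after the start site, all read from the minus strand: chr6:129623815-129624114 for Klrk1, chr14:56262285-56262584 for Gzmb and, for the upstream of 2 Tcf7 starts, chr11:52282965-52283264. Capitals mark matches, on either strand, to TGTGGT (bound by RUNX factors), CTTTGA (TCF/LEF) and GTGTGA (T-box), and no matches overlap each other in these windows.
Klrk1: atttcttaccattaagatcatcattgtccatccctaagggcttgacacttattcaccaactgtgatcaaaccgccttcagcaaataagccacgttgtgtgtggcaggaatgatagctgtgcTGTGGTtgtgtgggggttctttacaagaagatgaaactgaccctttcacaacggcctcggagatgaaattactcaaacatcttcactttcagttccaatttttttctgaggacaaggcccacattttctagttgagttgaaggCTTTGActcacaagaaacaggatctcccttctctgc
Gzmb: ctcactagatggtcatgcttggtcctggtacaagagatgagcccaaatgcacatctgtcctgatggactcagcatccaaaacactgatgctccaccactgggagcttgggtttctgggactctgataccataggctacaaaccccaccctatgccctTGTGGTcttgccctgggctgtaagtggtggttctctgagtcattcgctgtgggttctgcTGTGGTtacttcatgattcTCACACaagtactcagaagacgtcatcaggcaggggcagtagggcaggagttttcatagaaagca
Tcf7: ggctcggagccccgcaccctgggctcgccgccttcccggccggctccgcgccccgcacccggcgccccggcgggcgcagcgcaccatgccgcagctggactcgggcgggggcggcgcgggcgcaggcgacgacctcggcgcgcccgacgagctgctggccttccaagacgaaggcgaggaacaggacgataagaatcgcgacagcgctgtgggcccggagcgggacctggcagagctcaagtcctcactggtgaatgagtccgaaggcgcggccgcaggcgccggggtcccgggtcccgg
The Klrk1 window held 1 RUNX and 1 TCF/LEF match, the Gzmb window 2 RUNX matches and 1 T-box match, and the Tcf7 window none. Before its annotated start, the Tcf7 window has an atg with a reading frame open to the end of the window. It could therefore hold transcribed coding sequence, which was not tested, and its lack of matches may not describe a promoter. Of the 8 genes in the promoter table, 4 had a RUNX match (Klrk1, Gzmb, Prf1 and Nkg7), 2 a T-box match (Gzmb and Nkg7) and 1 a TCF/LEF match. Among all 32851 promoters these motifs occurred in 16.8%, 14.5% and 16.0%, in the order RUNX, T-box, TCF/LEF. Cd4 and Il2rb were not in the promoter table. A match is a description of the letters and not evidence of binding.

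Klrk1 and Il2rb, genes of lymphocyte surface receptors, rose in PERK_KO tumours. Klrk1 (ENSMUSG00000030149.15, chromosome 6, 129610323 to 129623864, minus strand) encodes NKG2D, a receptor on NK cells and CD8 T cells that detects stress-induced ligands on other cells. Klrk1 had 77, 195, 207 and 937 counts in PERK_KO libraries 1 to 4 and 38, 25, 5 and 29 in Scramble libraries 2 to 5. In CPM this was 2.58, 4.75, 4.80 and 24.3 in PERK_KO tumours and 0.687, 0.429, 0.108 and 0.561 in Scramble tumours. The lowest PERK_KO library stood well above the highest Scramble library. The log2 difference was 4.34 (SE 0.80, n = 4 each, edgeR adjusted p = 0.00612). PERK_KO library 4 carried 66.7% of the PERK_KO CPM, and without it the log2 difference of Klrk1 was 3.17 (SE 0.62, adjusted p = 0.00928).

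Il2rb (ENSMUSG00000068227.9, chromosome 15, 78479256 to 78495271, minus strand) encodes the beta chain shared by the receptors for interleukins 2 and 15, which sustain NK and memory CD8 T cells. It had 30, 176, 73 and 566 counts in PERK_KO libraries 1 to 4 and 44, 39, 9 and 33 in Scramble libraries 2 to 5. After scaling, the lowest PERK_KO level was 1.00 CPM in library 1 and the highest Scramble level 0.796 CPM in library 2. The groups did not overlap, but library 1 lay close to the Scramble range. The log2 difference of Il2rb was 3.23 (SE 0.81, n = 4 each, edgeR adjusted p = 0.0223). The call ended without PERK_KO library 4, at a log2 difference of 2.01 (adjusted p = 0.101), and without Scramble library 2, 3, 4 or 5 (adjusted p = 0.0543, 0.0662, 0.0616 and 0.0631).

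Klrk1 was therefore the only one of the 10 genes still called without PERK_KO library 4, when 6.16% of all tested genes were called higher.

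**Figure D2:**
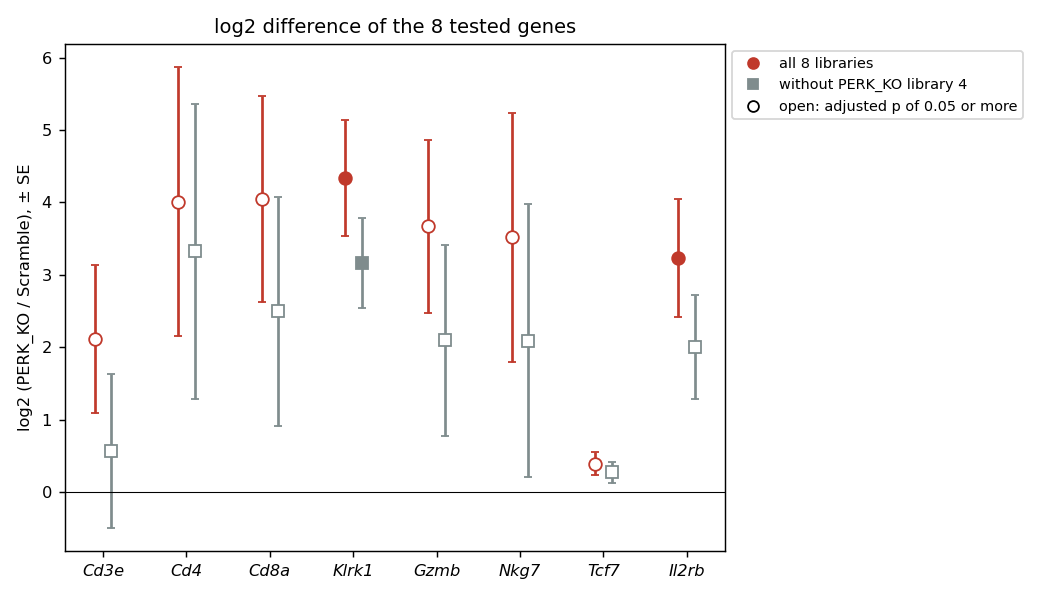
log2 difference, PERK_KO over Scramble, of the 8 tested genes with SE, for all 8 libraries (circles) and without PERK_KO library 4 (squares). Filled symbols have an edgeR adjusted p under 0.05: Klrk1 and Il2rb with all libraries, and Klrk1 without library 4.

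Gzmb and Nkg7, genes of the granule machinery, did not pass the test, and Prf1 had too few counts to be tested. Gzmb (ENSMUSG00000015437.5, chromosome 14, 56258838 to 56262260, minus strand) encodes granzyme B, a protease that starts cell death in the target. Gzmb had 20, 38, 51 and 320 counts in PERK_KO libraries 1 to 4 and 31, 7, 0 and 9 in Scramble libraries 2 to 5. In CPM this was 0.670, 0.926, 1.18 and 8.31 in PERK_KO tumours and 0.561, 0.120, 0 and 0.174 in Scramble tumours. The groups did not overlap, with PERK_KO library 1 just above Scramble library 2. The log2 difference was 3.67 (SE 1.19, n = 4 each, edgeR adjusted p = 0.0637), 2.10 (adjusted p = 0.371) without PERK_KO library 4 and 4.76 (adjusted p = 0.0599) without Scramble library 2. Gzmb lies in a cluster of related granzyme genes, among which the counting could split reads.

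Prf1 (ENSMUSG00000037202.6, chromosome 10, 61297833 to 61304680, plus strand), the gene of perforin, had 0, 0, 7 and 71 counts in PERK_KO libraries 1 to 4. Scramble libraries 2 to 5 held 0, 0, 4 and 0 counts of it. PERK_KO library 4 thus held 91.9% of the PERK_KO CPM of Prf1. It failed the filter, and without a filter its log2 difference was 4.39 (SE 2.37, n = 4 each, edgeR adjusted p = 0.261).

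Nkg7 (ENSMUSG00000004612.9, chromosome 7, 43437073 to 43438249, plus strand) encodes a granule membrane protein needed for efficient release of cytotoxic granules. It had 0, 42, 23 and 156 counts in PERK_KO libraries 1 to 4 and 0, 19, 7 and 0 in Scramble libraries 2 to 5. Each group had libraries without a count, so the groups overlapped. The log2 difference of Nkg7 was 3.52 (SE 1.72, n = 4 each, edgeR adjusted p = 0.219), 2.09 (adjusted p = 0.563) without PERK_KO library 4 and 4.75 (adjusted p = 0.223) without Scramble library 3.

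Mouse mast cells can also make granzyme B, and they carry Kit. Of 14 mast cell markers, all tested, 12 were higher and none lower in PERK_KO tumours. Their summed level ran from 867 to 3407 CPM in PERK_KO tumours and from 193 to 378 CPM in Scramble tumours, with none of the 14 at 0 in a whole group. These sums include Kit, which was not called, with 139 to 211 CPM in PERK_KO tumours and 170 to 223 CPM in Scramble tumours. The part of mast cells in the Gzmb counts was not tested. PERK_KO library 1 had 20 counts of Gzmb, none of Prf1 and none of Nkg7, and Scramble library 2 had 31 of Gzmb and none of the other two.

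Tcf7 differed from the other 9 genes in its level and its evenness. Tcf7 (ENSMUSG00000000782.15, chromosome 11, 52252371 to 52283014, minus strand) encodes TCF1, a partner of beta-catenin in Wnt signalling that keeps T cells in a naive or memory-like state. It had 1072, 1509, 1064 and 1673 counts in PERK_KO libraries 1 to 4 and 1328, 1696, 1270 and 1372 in Scramble libraries 2 to 5. In CPM this was 35.9, 36.8, 24.7 and 43.4 in PERK_KO tumours and 24.0, 29.1, 27.5 and 26.5 in Scramble tumours. PERK_KO libraries 1, 2 and 4 lay above all Scramble libraries and library 3 lay within their range. The log2 difference of 0.39 (SE 0.16, n = 4 each, edgeR adjusted p = 0.131) did not pass, but it was 0.53 (adjusted p = 0.0171) without PERK_KO library 3.

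The abundance of Tcf7 did not follow the other lymphocyte transcripts. Scramble library 4 had 1270 counts of Tcf7 and 32 counts of the other 9 genes together. PERK_KO library 4 had 1673 counts of Tcf7 and 2827 of the other 9. In RPKM, the CPM per kilobase of exon, Tcf7 had 13.4 ± 2.96 RPKM in PERK_KO tumours and 10.2 ± 0.81 RPKM in Scramble tumours (SD, n = 4 each), while Cd3e had 0.561 ± 0.750 RPKM in PERK_KO tumours and 0.129 ± 0.0871 RPKM in Scramble tumours. Which cells carried Tcf7 was not tested.

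On the per-kilobase scale the order of mean levels in PERK_KO tumours was Tcf7, Gzmb (1.93 ± 2.57 RPKM, SD, n = 4), Nkg7 (1.53 ± 1.99), Klrk1 (1.27 ± 1.42), Il2rb (1.26 ± 1.48), Cd8a (0.699 ± 0.930), Cd3e, Cd4 (0.446 ± 0.461), Prf1 (0.194 ± 0.347) and Cd3g (0.168 ± 0.287). In Scramble tumours it was Tcf7, Gzmb (0.149 ± 0.169 RPKM, SD, n = 4), Il2rb (0.134 ± 0.0612), Nkg7 (0.131 ± 0.170), Cd3e, Klrk1 (0.0621 ± 0.0347), Cd3g (0.0526 ± 0.0560), Cd8a (0.0410 ± 0.0626), Cd4 (0.0266 ± 0.0532) and Prf1 (0.00838 ± 0.0168). Below Tcf7, neighbours in either order differed by less than the larger SD of the pair.

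Ptprc, the gene of the pan-leukocyte protein CD45, was higher in PERK_KO tumours, with 20.9, 43.3, 32.8 and 115 CPM in PERK_KO libraries 1 to 4 and 8.81, 6.98, 3.42 and 9.67 CPM in Scramble libraries 2 to 5 (log2 difference 2.88, SE 0.59, edgeR adjusted p = 0.0179). Each lymphocyte gene was therefore also set against Ptprc of the same library, per kilobase, as a description with no test. Klrk1 stood at 31.5, 28.0, 37.3 and 53.8% of Ptprc in PERK_KO libraries 1 to 4 and at 19.9, 15.7, 8.07 and 14.8% in Scramble libraries 2 to 5. It was higher in every PERK_KO library on this scale too. Il2rb averaged 34.9 ± 16.4% of Ptprc in PERK_KO tumours and 33.0 ± 8.01% in Scramble tumours (SD, n = 4 each). Its ranges overlapped, unlike its CPM.

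Relative to Ptprc, Cd3e averaged 13.8 ± 9.77% in PERK_KO tumours and 30.4 ± 12.3% in Scramble tumours (SD, n = 4 each). Its values of 3.60 to 26.5% in PERK_KO tumours overlapped the 19.9 to 46.7% in Scramble tumours, with the lower mean in PERK_KO tumours. Cd8a averaged 19.3 ± 11.4% of Ptprc in PERK_KO tumours and 10.2 ± 16.6% in Scramble tumours, with overlap. Gzmb averaged 51.5 ± 28.1% in PERK_KO tumours and 31.5 ± 34.8% in Scramble tumours, also with overlap. Tcf7 ran from 263 to 1199% in PERK_KO tumours and from 1902 to 5608% in Scramble tumours without overlap, lower in PERK_KO tumours on this scale. Cd3g, Nkg7 and Prf1 also had the lower mean in PERK_KO tumours and Cd4 the higher mean, all with overlap. Besides Klrk1, Tcf7 was the only one of the 10 genes whose groups did not overlap relative to Ptprc. Ptprc was itself higher in PERK_KO tumours, so a gene with similar CPM in both groups is lower on this scale. The share of all tested genes without overlap on this scale was not computed.

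**Figure D3:**
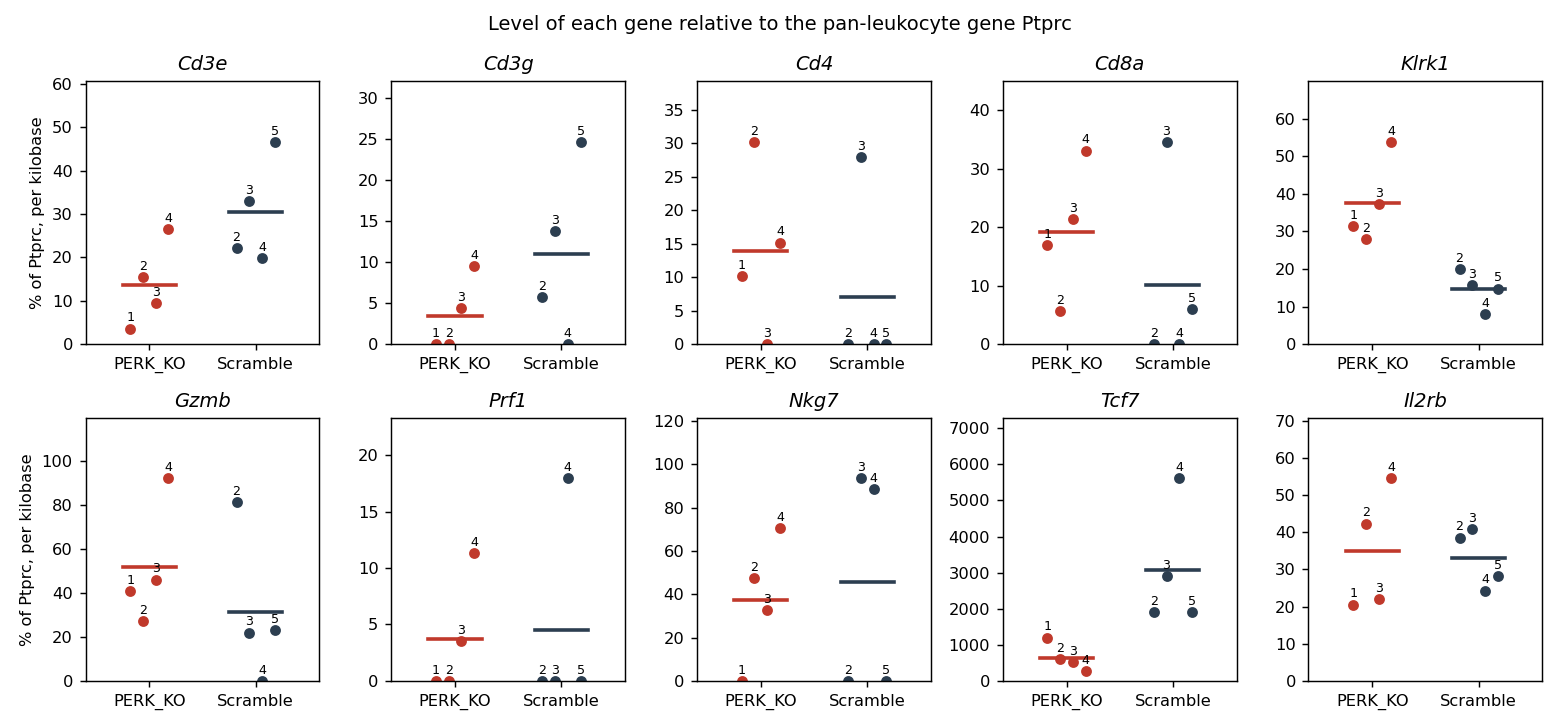
Level of each gene as a percentage of Ptprc in the same library, both per kilobase of exon, on linear axes that start at 0. Points are libraries with their numbers, PERK_KO on the left, and bars are group means. Klrk1 lies above the Scramble range in all 4 PERK_KO libraries and Tcf7 below it, while the other 8 genes overlap.

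Other genes of these pathways were read from 8 lists drawn from textbook roles, and their changes are log2 differences, PERK_KO over Scramble. None of the lists with no lower call gained one with DESeq2 or limma-voom. The list medians cover tested genes only and stand beside a median log2 difference of -0.02 over all 16662 tested genes. A scarce gene enters the test mainly through the group in which it is higher, so the medians of scarce lists carry no support of their own. Of 14 further genes of the T cell receptor complex and coreceptors, 6 were tested and none passed in edgeR, with a median log2 difference of 2.49. At an unadjusted p under 0.05 there were 2, DESeq2 and limma-voom called 1 each, and leaving out PERK_KO library 1 or Scramble library 2, 4 or 5 gave 1, 2, 1 and 1. Fitted without a filter, edgeR called 1 gene of this list higher, where 4.26% of all genes were called higher. Thy1, a surface protein of T cells and many other cells, had 4.36 ± 3.76 CPM in PERK_KO tumours and 1.497 ± 1.06 CPM in Scramble tumours (SD, n = 4 each; edgeR adjusted p = 0.244). Trbc1, a constant region of the receptor beta chain that could share reads with its near-identical copy Trbc2, had 0, 157, 18 and 111 counts in PERK_KO libraries 1 to 4 and 26, 30, 0 and 0 in Scramble libraries 2 to 5 (edgeR adjusted p = 0.311).

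Of 16 genes of proximal T cell receptor signalling, 10 were tested, 4 rose and none fell, with a median log2 difference of 2.61. Ptpn22, a phosphatase that restrains receptor signals in T cells and other leukocytes, rose by 3.43 (SE 0.64), Gpr171, a G protein-coupled receptor, by 4.24 (SE 0.78) and Lcp2, the adaptor SLP-76, by 2.08 (SE 0.52), with edgeR adjusted p = 0.00577, 0.00795 and 0.0282. Without PERK_KO library 4 the change was 2.84 for Ptpn22 and 3.23 for Gpr171. The Lcp2 call ended without PERK_KO library 2 (adjusted p = 0.0582) and without Scramble library 2, 3 or 5 (0.0523, 0.0860 and 0.0769). The count of called genes was 2 without PERK_KO library 2 or Scramble library 2, 3 or 5. Lcp2 is also a gene of myeloid and mast cells. The fourth called gene was Sh2d2a, a T cell adaptor (log2 difference 3.32, adjusted p = 0.0455).

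Of 15 further cytotoxic granule and effector genes, 9 were tested, 6 rose and 1 fell, with a median log2 difference of 1.74. Ccl5, a chemokine released by activated T and NK cells and by other cells, rose by 2.88 (SE 0.37, edgeR adjusted p = 0.00113). Unc13d, which primes granules for fusion, rose by 1.74 (SE 0.37, adjusted p = 0.0105). Rab27a, a granule transport protein that melanocytes use to move melanosomes, was lower, with a log2 difference of -0.50 (SE 0.08, adjusted p = 0.00277), with 267 ± 18.5 CPM in PERK_KO tumours and 377 ± 14.7 CPM in Scramble tumours. The count of risen genes was 4 without PERK_KO library 4, 3 without Scramble library 4, and 2 without Scramble library 2 or 3.

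Of 16 NK cell receptors and adaptors, 7 were tested, 5 rose and none fell, with a median log2 difference of 3.29. Il12rb2, a chain of the interleukin 12 receptor, rose by 4.70 (SE 0.79), Cd244a, the receptor 2B4, by 3.04 (SE 0.52) and Tyrobp, the adaptor DAP12 of NK and myeloid receptors, by 2.73 (SE 0.52), with edgeR adjusted p = 0.00351, 0.004 and 0.00662. The other called genes were Klrd1, the CD94 chain that pairs with NKG2 receptors (log2 difference 3.29, adjusted p = 0.0354), and Cd226, the activating receptor DNAM-1 (3.40, adjusted p = 0.0367). Without PERK_KO library 4 the change was 3.53 for Il12rb2 and 2.05 for Tyrobp. Hcst, the adaptor DAP10 through which NKG2D signals, had 0, 0, 44 and 57 counts in PERK_KO libraries 1 to 4 and 21, 0, 5 and 7 in Scramble libraries 2 to 5, too few to be tested. Hcst was singled out after its values were seen. The count of called genes was 3 without PERK_KO library 4 or Scramble library 2, 3 or 5.

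Of 14 genes of interleukin 2, 7 and 15 receptor signalling, 13 were tested, 4 rose and none fell, with a median log2 difference of 0.80. The other chains that make up receptors with Il2rb were among them. Il2ra, the alpha chain for interleukin 2, rose by 3.39 (SE 0.55), Il2rg, the common gamma chain, by 2.08 (SE 0.35) and Il15ra, the alpha chain for interleukin 15, by 2.52 (SE 0.57), with edgeR adjusted p = 0.00305, 0.0037 and 0.014. The fourth called gene was Jak3, the kinase that binds the gamma chain (log2 difference 0.80, adjusted p = 0.0151). The Il15ra call ended without Scramble library 3 (adjusted p = 0.0550). Il2ra, Il2rg and Il15ra, named for their small p, did not overlap between groups. Every PERK_KO library lay above every Scramble library at 10.2% of all tested genes.

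Of 15 transcription factors of T and NK cells, 12 were tested, 4 rose and 1 fell, with a median log2 difference of 1.82. Gata3, which directs helper T cells and also acts in mast cells and innate lymphoid cells, rose by 3.42 (SE 0.50), Runx3, which sustains Cd8a in cytotoxic T cells, by 3.47 (SE 0.55) and Satb1, a chromatin organiser of T cells, by 4.01 (SE 0.83), with edgeR adjusted p = 0.00215, 0.00544 and 0.0103. The change of Satb1 was 3.25 without PERK_KO library 4 and 4.82 without Scramble library 2. Id2, which NK cells and innate lymphoid cells need, was also called (log2 difference 0.52, adjusted p = 0.0403). The fallen factor was Ets1, with 368 ± 25.9 CPM in PERK_KO tumours and 465 ± 19.7 CPM in Scramble tumours (SD, n = 4 each), and its call ended without Scramble library 2 or 3.

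Of 14 partners of TCF1 and feedback targets of Wnt signalling, 11 were tested, 1 rose and 1 fell, with a median log2 difference of 0.03. Ctnnb1, the gene of beta-catenin, was lower, with a log2 difference of -0.51 (SE 0.07, edgeR adjusted p = 0.00213). It had 645 ± 30.4 CPM in PERK_KO tumours and 919 ± 32.6 CPM in Scramble tumours (SD, n = 4 each). Rnf43, a Wnt feedback inhibitor, rose by 4.23 (SE 1.20, adjusted p = 0.0365), and its call was lost in 7 of 8 fits on the remaining libraries, with adjusted p = 0.0509, 0.0804 and 0.0588 without PERK_KO libraries 2, 3 and 4 and 0.0653, 0.0864, 0.0671 and 0.0535 without Scramble libraries 2 to 5. Its log2 change was 5.03 without Scramble library 5. Of 14 genes of T cell homing, memory and inhibition, 8 were tested, 3 rose and none fell, with a median log2 difference of 0.78. Havcr2, the inhibitory receptor TIM-3, rose by 2.60 (SE 0.43) and Ccr7, a lymph node homing receptor of T cells and dendritic cells, by 4.03 (SE 0.88), with edgeR adjusted p = 0.00371 and 0.0223. Without PERK_KO library 4 the change was 1.93 for Havcr2 and 3.13 for Ccr7. The Ccr7 call ended without Scramble library 2, 3 or 5 (0.0602, 0.0732 and 0.0636). The count of called genes was 1 without Scramble library 2 or 5.

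**Figure D4:**
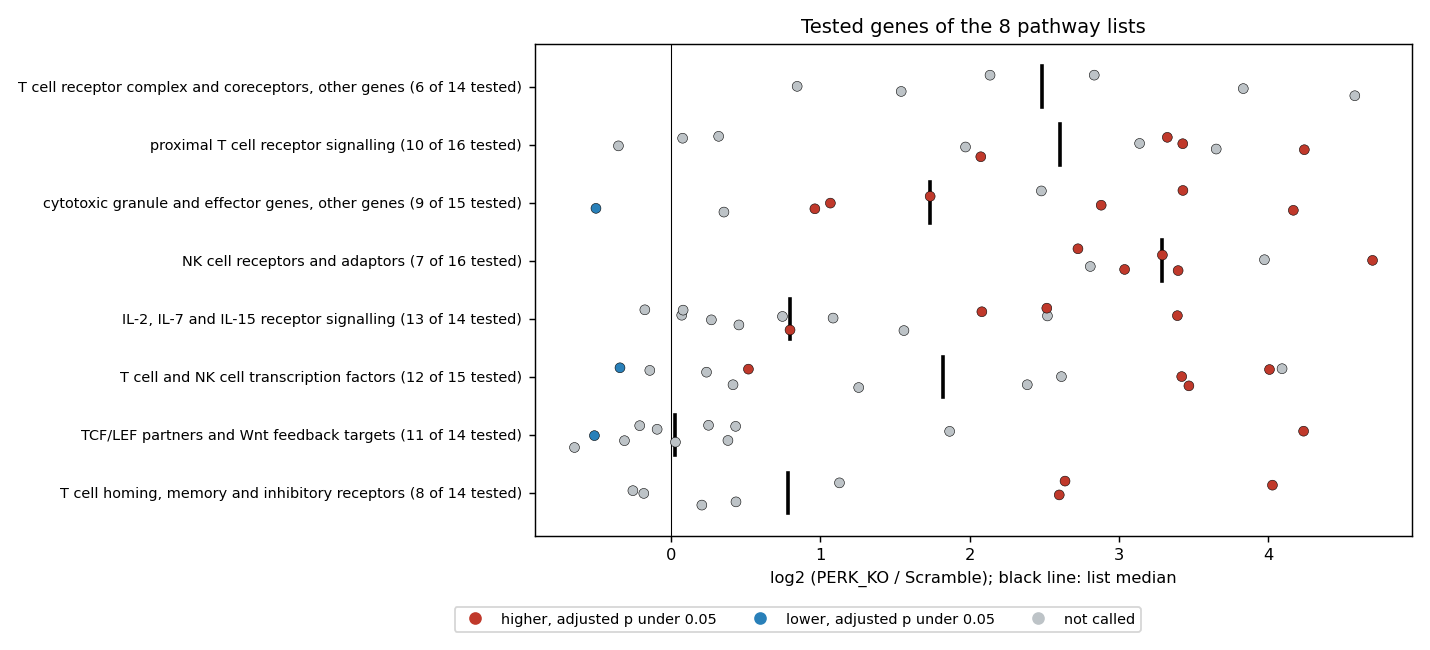
log2 difference, PERK_KO over Scramble, of every tested gene of the 8 pathway lists. Each point is a gene, red where higher and blue where lower at an edgeR adjusted p under 0.05, and black lines are list medians, which run from 0.03 for TCF/LEF partners to 3.29 for NK cell receptors.

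Markers of other cell types moved in the same libraries as the lymphocyte genes. Summed over the 9 genes other than Tcf7, the lymphocyte level was 5.59, 15.8, 10.7 and 73.4 CPM in PERK_KO libraries 1 to 4 and 2.57, 3.14, 0.693 and 2.92 CPM in Scramble libraries 2 to 5. Of 15 pan-leukocyte genes, all tested, 14 were higher, and their sum ran from 317 to 1181 CPM in PERK_KO tumours and from 105 to 155 CPM in Scramble tumours. All 14 monocyte and macrophage markers were higher, with sums from 307 to 969 CPM in PERK_KO tumours and from 50.2 to 138 CPM in Scramble tumours. Cd37, a tetraspanin, rose by 2.05 (log2, SE 0.33), the integrin chain Itgb2 by 1.94 (SE 0.36), the folate receptor Folr2 by 2.94 (SE 0.45) and the chemokine Pf4 by 2.58 (SE 0.40), with edgeR adjusted p = 0.00321, 0.00709, 0.00251 and 0.00416. Among mast cell markers the transcription factor Gata2 rose by 2.24 (SE 0.32) and the IgE receptor gene Ms4a2 by 3.44 (SE 0.65), with adjusted p = 0.00162 and 0.00612. Among dendritic cell markers the integrin Itgax rose by 3.44 (SE 0.42) and the growth factor receptor Flt3 by 3.52 (SE 0.53), with adjusted p = 0.000764 and 0.0033, and Flt3 by 2.78 without PERK_KO library 4. Without Scramble library 3 the called genes numbered 5 of the pan-leukocyte, 5 of the mast cell, 5 of the conventional dendritic cell and 7 of the monocyte and macrophage list. They numbered 8 of the pan-leukocyte list without Scramble library 2, and 5 of the dendritic cell and 8 of the monocyte and macrophage list without Scramble library 5. PERK_KO library 4 was highest and Scramble library 4 lowest in the sums of all these lists.

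Of 10 B cell markers 7 were tested and none passed in edgeR (2 at an unadjusted p under 0.05, 1 with DESeq2, 0 with limma-voom, and 1 without PERK_KO library 2 or 3), with sums from 5.12 to 34.5 CPM in PERK_KO tumours and from 1.08 to 3.91 CPM in Scramble tumours. Cd79a, of the B cell receptor, had 2.31 ± 3.45 CPM in PERK_KO tumours and 1.07 ± 0.516 CPM in Scramble tumours (SD, n = 4 each). Cd22, a B cell coreceptor, had 2.46 ± 2.53 CPM in PERK_KO tumours and 0.447 ± 0.125 CPM in Scramble tumours (edgeR adjusted p = 0.096, and 0.0365 without PERK_KO library 3). Plasmacytoid dendritic cell markers were higher at 2 of 6 tested genes of 10, and their sums ran from 180 to 377 CPM in PERK_KO tumours and from 145 to 165 CPM in Scramble tumours. Most of these sums was Bst2, which was not called, with 140 to 269 CPM in PERK_KO tumours and 138 to 155 CPM in Scramble tumours. The called genes were Runx2 (log2 difference 2.56, SE 0.40) and Ly6d (5.20, SE 0.87), with edgeR adjusted p = 0.00277 and 0.00357. Siglech, a defining marker of these cells singled out after its values were seen, had 63 counts over the PERK_KO group and 14 over the Scramble group. Of 12 innate lymphoid cell markers, which overlap other lists, 9 were tested and 4 were higher, among them Gata3 and the growth factor Areg (log2 difference 5.72, SE 1.05, edgeR adjusted p = 0.00542, and 6.57 without Scramble library 2), Il1rl1, which mast cells also carry, and Arg1. Il22 had no count in any library. Sums of the innate lymphoid cell markers ran from 266 to 409 CPM in PERK_KO tumours and from 245 to 314 CPM in Scramble tumours. Much of them was Kit, the receptor used for enrichment, with 139 to 211 CPM in PERK_KO tumours and 170 to 223 CPM in Scramble tumours.

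Among non-leukocyte lists, 7 of 12 melanocyte lineage markers fell and none rose, with sums from 20574 to 25027 CPM in PERK_KO tumours and from 29089 to 29751 CPM in Scramble tumours. The pigmentation genes Oca2 and Trpm1 had log2 differences of -1.57 (SE 0.16) and -1.18 (SE 0.13), with edgeR adjusted p = 0.000228 and 0.000427. Of 10 simple epithelial markers, 9 rose, and those with the smallest p were the adhesion genes Epcam (log2 difference 5.77, SE 0.49) and Cdh1 (2.88, SE 0.25), both with edgeR adjusted p = 9.11e-05, with sums from 92.9 to 243 CPM in PERK_KO tumours and from 3.31 to 5.98 CPM in Scramble tumours. The part of any of these cell types in the differences of the 10 lymphocyte genes was not tested.

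**Figure D5:**
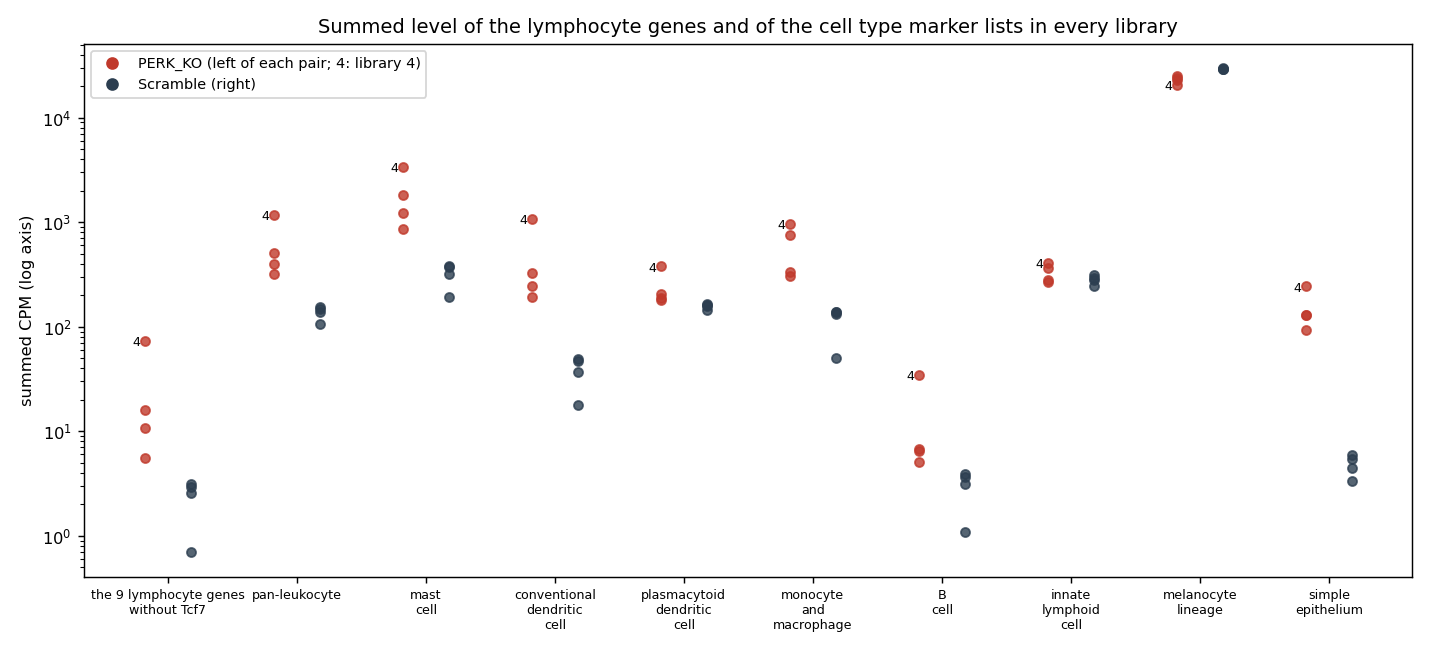
Summed CPM in every library, on a log axis, of the 9 lymphocyte genes other than Tcf7 and of 9 cell type marker lists, PERK_KO on the left and Scramble on the right of each pair. PERK_KO library 4, marked 4, has the highest sum of every list except the melanocyte lineage, where it has the lowest.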

How the data were processed

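RNA of c-Kit-enriched cells from 8 tumours (4 PERK_KO, 4 Scramble) was sequenced from strand-specific libraries made from 100 ng of RNA, per the labels' protocols. The deposited table holds raw read counts per gene, not normalized. The submitters' processing notes name bcl2fastq, STAR 2.5.3a, HTSeq 0.6.1, DESeq2 1.30.1 and the build mm10; the strand setting and the treatment of overlapping genes are not given in the sources used here. Reads carry no molecular identifiers that the labels mention, so they are not independent molecules.

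All 55450 identifiers matched GENCODE M21, the source of positions and exon lengths (union of exons). Genes were filtered with filterByExpr, scaled with TMM and tested with the robust quasi-likelihood test of edgeR 4.0.16 (R 4.3.3, ~ group) with Benjamini-Hochberg adjustment over all genes tested and a threshold of 0.05. SE is the log2 difference over the square root of F, and ± is the SD. CPM divides counts by the library total times its TMM factor. The genes and lists were chosen with earlier results of these data known. Text names the 10 genes, Eif2ak3, Kit and, from each pathway list, up to 3 called genes ranked by p (2 from each marker list), or 2 by mean CPM if no gene was called; 1 gene so chosen is not reported here. Ptprc, and other called genes that complete a small count, were added after their values were seen. Alternatives were DESeq2 1.42.0, limma 3.58.1 (voom, sample quality weights), scaling by RLE, upper quartiles or totals, no filter, a stricter filter (1 CPM in 4 libraries), a fit that is not robust, a block on replicate number, and each library left out in turn. Plots used Python 3.11.15 and matplotlib 3.10.9.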

Additional observations from a re-analysis of the deposited data

Results flagged for a closer look

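In 7 of 20 sets of 4 libraries (10 genes in 2 groups), 1 library stood apart from the other 3 by Dixon's test. Chance flags about 1 set in 20 of normally distributed values, a rate that does not hold for genes near 0, where 3 libraries at 0 and 1 above it are always flagged, and sets from the same libraries are not independent. PERK_KO library 4 was the high one at Cd3g (1.95 CPM, next 0.255), Cd8a (7.58 CPM, next 1.39), Klrk1 (24.3 CPM, next 4.80), Gzmb (8.31 CPM, next 1.18) and Prf1 (1.84 CPM, next 0.162). In the Scramble group, library 3 was the only one with Cd4 (0.429 CPM) and library 4 the only one with Prf1 (0.0866 CPM, from 4 counts).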

How the results depend on the processing

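Numbers 2, 3 and 4 occur in both groups, and the labels do not say what the numbers stand for. Deviations from the group mean correlated at -0.01, 0.10 and -0.20 between libraries of the same number. The Scramble library that matched best was number 4, 3 and 5, in the same order. So few values cannot decide whether the numbers mark pairs, and the main test did not use them. With the replicate block, 127 genes were higher, 81 lower and 0 of the 10 lymphocyte genes passed (adjusted p = 0.0992 for Klrk1 and 0.174 for Il2rb). Number 1 occurs only in PERK_KO and number 5 only in Scramble, so under the block these 2 libraries add nothing to the group difference. Leaving out 1 library gave 639 to 1372 higher genes, 439 to 1244 lower genes, 1 to 3 lymphocyte genes higher and 0 lower. Without Scramble libraries 2, 3 and 5 the higher genes numbered 791, 639 and 771, and without Scramble libraries 2 to 5 the lower genes numbered 492, 439, 554 and 590. Upper-quartile scaling gave 653 lower genes against 1022. limma-voom called 1 lymphocyte gene, Klrk1 (adjusted p = 0.00735), and Il2rb missed at 0.0528. DESeq2 called Klrk1, Il2rb and Cd8a and gave Gzmb no adjusted p. Each of the 8 tested lymphocyte genes kept its positive sign in every alternative that tested it. Under the stricter filter 5 of them (Cd3e, Cd4, Cd8a, Gzmb and Nkg7) were not tested. Of 677 values of the 40 other named genes under the alternatives, 626 kept their direction and call, 47 lost the call, 2 gained it and 2 turned: Cd79a, at -0.86 without PERK_KO library 4 and -0.0674 with limma-voom, against 1.11; leaving out 1 library gave it -0.86 to 1.49. Under the replicate block the called genes of the pathway lists fell to 0 or 1 each, against 0 to 6. The causes of these changes were not tested. Cd3g and Prf1 failed the low-count filter, with 86 and 78 counts over the PERK_KO group and 37 and 4 over the Scramble group.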

Other observations

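Some scarce T cell genes did not peak in PERK_KO library 4. The genes of this paragraph were singled out after their values were seen, and only their counts are given. Ifng, the gene of interferon gamma, had 28, 15, 8 and 0 counts in PERK_KO libraries 1 to 4 and 0, 3, 0 and 0 in Scramble libraries 2 to 5. Zap70, the kinase recruited by phosphorylated CD3 chains, had 6, 23, 43 and 0 counts in PERK_KO libraries 1 to 4 and 0, 2, 0 and 1 in Scramble libraries 2 to 5. In PERK_KO library 4 both genes were at 0 while Cd3e had 262 counts and Gzmb 320. Trbc2, another constant region of the receptor beta chain, had 12, 38, 40 and 24 counts in PERK_KO libraries 1 to 4 and 6, 0, 0 and 0 in Scramble libraries 2 to 5.

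Cd2 and Pdcd1 had no count in any Scramble library. Cd2, an adhesion receptor of T and NK cells, had 2, 41, 52 and 77 counts in PERK_KO libraries 1 to 4 and Pdcd1, the inhibitory receptor PD-1, had 0, 0, 49 and 92. Tox, a factor of exhausted T cells, had 0, 0, 38 and 176 counts in PERK_KO libraries 1 to 4 and 1, 0, 0 and 6 in Scramble libraries 2 to 5. Pdcd1, Tox, Prf1 and Cd3g were at 0 in PERK_KO libraries 1 and 2 and above 0 in libraries 3 and 4.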
